A study of Mus musculus with 6 samples.

Results

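The phagocyte NADPH oxidase was followed as 6 genes in 6 RNA sequencing libraries of mouse cerebral cortex. The genes, chosen by symbol, were Cybb and Cyba for the membrane subunits, Ncf1 and Ncf4 for cytosolic subunits, Rac2 for the small GTPase of the complex and Hvcn1 for the proton channel that works beside it. All 6 were among the 53379 genes of the count files, and all 6 were among the 17221 genes that passed the expression filter. The animals were labelled as C57BL/6 and 2 months old. The labels give 3 libraries as wild type (replicates 1, 3 and 4) and 3 as Gtf2ird1-/- (replicates 5, 6 and 7). The sources used here do not say which part of Gtf2ird1 is altered in the latter, or whether each library is from its own animal, so p-values describe the spread between these libraries, which may be technical. Gtf2ird1 itself was measured at 23.35, 31.54 and 52.68 CPM (wild type) against 49.69, 40.62 and 48.76 CPM (labelled knockout). A count over the whole gene does not check an allele whose altered part is unknown.

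In phagocytes the oxidase moves electrons from cytosolic NADPH across a membrane onto oxygen and so makes superoxide. Cybb (gp91phox, NOX2) holds the electron path and is stabilised by Cyba (p22phox). At rest the organiser Ncf1 (p47phox) and Ncf4 (p40phox) stay in the cytosol, and on stimulation they join the membrane pair with a Rac GTPase. Each electron that crosses leaves positive charge behind, and the voltage-gated proton channel Hvcn1 lets protons follow. In the brain the complex is best known from microglia, the resident macrophages.

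The series title speaks of Gad2+ neurons, whereas phagocyte transcripts led these libraries. The summed level of 18 microglia markers was 33480 to 54880 CPM (wild type) against 35120 to 43890 CPM (labelled knockout), beside 259.9 to 848.1 and 590 to 1085 CPM for 11 markers of GABAergic neurons. Total gene counts ran from 13627501 to 30544144 per library. Reads that fell on more than 1 gene made up 14.5% of wild type replicate 3, 8.63% of knockout replicate 6 and at most 2.69% of any other library. Ribosomal RNA took 17.5% of gene counts in wild type replicate 3, 6.2% in knockout replicate 6 and at most 1.51% elsewhere. Wild type replicates 3 and 4 stood apart from the other 4 libraries on the first principal component, at 72.46 and 63.08 against -56.32 to -20.56. Y-linked transcripts (Ddx3y, Eif2s3y, Kdm5d and Uty together) reached 390 and 474 CPM in 2 libraries, knockout replicates 5 and 6, and at most 0.219 CPM in the other 4, so the groups were not matched in sex. As the material is bulk RNA, fewer phagocytes and less RNA per phagocyte cannot be told apart.

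Ncf1 was the most abundant member by read number, and Cybb the least. Per length of exon (CPM per kb, the scale used for comparing genes), Ncf1 had a mean of 134.8 over the 6 libraries and Cyba 127.4. Their order was not fixed, since Ncf1 exceeded Cyba in 3 of 6 libraries. Hvcn1 followed with 42.52 CPM per kb and was below Cyba in all 6 libraries. Rac2 had 19.16 and Ncf4 16.71 CPM per kb, with overlapping ranges of 13.73 to 23.33 and 12.35 to 25.39. Cybb, the catalytic subunit, had 2.338 CPM per kb (0.678 to 3.738), and Ncf4, the next gene up, exceeded it 5.031 to 19.29 times per library. Among protein-coding genes ordered by CPM, Ncf1 took ranks 150 to 251 across the libraries, and Cybb ranks 7024 to 10790. The Cybb level rested on 69 to 624 counts per library, the Ncf1 level on 6458 to 17181.

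**Figure D1:**
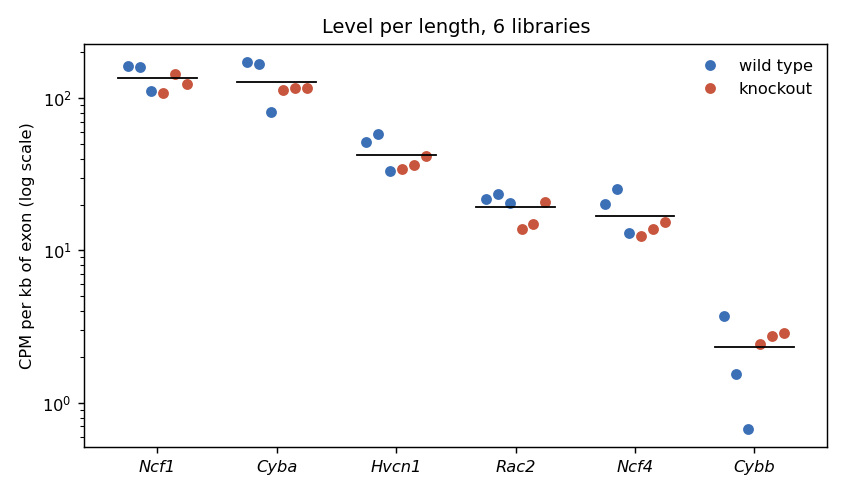
Level per length of the 6 oxidase genes on a log axis (CPM per kb of merged exon), each point being 1 library (blue wild type, red labelled knockout) and each line the mean of all 6. Ncf1 and Cyba lie near 130, while Cybb lies between 0.678 and 3.738.

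Upstream sequence was at hand for 3 of the 6 members in the RefSeq table of promoters (GRCm38.p6), and all 3 are shown. The choice was set by what was at hand. They are the lowest member per length, Cybb, and the 2 highest, Cyba and Ncf1. The 250 bases before the annotated start are given 5′ to 3′ on the gene's own strand, which is the minus strand for all 3, at chrX:9469325-9469574 for Cybb, chr8:122432941-122433190 for Cyba and chr5:134229626-134229875 for Ncf1. The start used for Cybb lies inside the longer GENCODE gene model, which reaches to base 9487771. Capitals mark matches on either strand to any motif searched. Among them was AGGAA, the core read by ETS factors such as PU.1, with its longer form GAGGAA. Others were the boxes CCAAT and, separately, TATAAA. The site of interferon regulatory factors was taken as a pair of GAAA on the same strand with any 2 bases between, and the composite site of these factors with an ETS factor as that pair with GGAA for its first member.
Cybb: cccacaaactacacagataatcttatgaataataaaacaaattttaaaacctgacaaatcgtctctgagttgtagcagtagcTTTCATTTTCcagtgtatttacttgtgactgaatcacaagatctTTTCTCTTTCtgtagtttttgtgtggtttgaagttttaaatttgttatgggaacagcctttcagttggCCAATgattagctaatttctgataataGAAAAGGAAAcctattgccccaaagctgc
Cyba: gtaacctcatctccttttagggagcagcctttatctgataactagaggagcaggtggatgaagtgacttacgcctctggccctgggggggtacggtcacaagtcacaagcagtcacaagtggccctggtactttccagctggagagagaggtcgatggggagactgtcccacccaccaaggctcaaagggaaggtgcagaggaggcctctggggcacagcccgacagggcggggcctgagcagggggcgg
Ncf1: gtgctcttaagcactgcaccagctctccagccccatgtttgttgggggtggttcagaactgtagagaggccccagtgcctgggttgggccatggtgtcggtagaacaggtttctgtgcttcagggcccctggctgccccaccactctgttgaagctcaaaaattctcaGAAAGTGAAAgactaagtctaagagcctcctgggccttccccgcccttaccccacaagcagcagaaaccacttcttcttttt
The Cybb window held 1 AGGAA (bases -25 to -21 from the start), 3 spaced GAAA pairs (-168 to -159, -124 to -115 and -29 to -20, the last overlapping AGGAA) and 1 CCAAT (-56 to -52). The Ncf1 window held 1 spaced GAAA pair at -82 to -73, and the Cyba window held no match. Over the 32851 windows of the table, 60.3% held AGGAA, 23.3% GAGGAA, 33.8% CCAAT, 12.4% TATAAA, 2.98% the spaced GAAA pair and 2.3% the composite. The windows also differed in base composition, with 34% G and C for Cybb, 54.4% for Ncf1 and 60% for Cyba. A match describes the letters only.

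No oxidase gene passed the threshold between the groups. With edgeR, 0 of 6 members had an adjusted p under 0.05 (background 0.00581% of the 17221 genes tested, or 1 gene), and 0 of 6 had an unadjusted p under 0.05 (background 7.25%). DESeq2 also called 0 of 6 (background 0.115%), with 0 at an unadjusted p under 0.05 (background 9.28%), and limma-voom called 0 of 6, with 1 at an unadjusted p under 0.05 (background 8.52%). With all 6 libraries kept, the edgeR count at an unadjusted p under 0.05 moved with scaling and filtering. It was 1 (Rac2, lower) with upper-quartile scaling and likewise with protein-coding genes alone. It was 2 (Ncf4 and Rac2, both lower) without the expression filter. The share over all genes is not given for these settings. Leaving out 1 library moved this count too. Without wild type replicate 4 there were 4 members, Cyba, Ncf4, Hvcn1 and Rac2, all lower (background 6.44%). Without wild type replicate 1 it was Cybb alone, higher (background 10.8%), and without knockout replicate 7 Rac2 alone, lower (background 3.67%). None of these passed after adjustment by edgeR. The groups overlapped for every member, where 13% of all tested genes showed no overlap. Of the 6 log2 fold changes (libraries labelled knockout over wild type), 5 were negative (background 53.7%), with a median of -0.32 beside -0.03 over all tested genes. The members' median became -0.50 when wild type replicate 4 was left out, -0.16 when replicate 3 was and -0.21 when replicate 1 was.

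Cybb was the member with the widest spread. Its level in CPM was 21.71 (wild type replicate 1), 8.971 (replicate 3) and 3.938 (replicate 4), and on the other side 14.11 (knockout replicate 5), 16.06 (replicate 6) and 16.68 (replicate 7). The wild type libraries thus held both the highest and the 2 lowest values, and the libraries labelled knockout lay close together between them. The group means were 11.54 ± 9.162 and 15.62 ± 1.339 CPM (SD, n = 3 each), with a log2 fold change of 0.42 ± 0.53 SE (adjusted p = 0.81 by edgeR). The fold had a 95% interval of 0.564 to 3.19. Without wild type replicate 1 the log2 fold change was 1.29 (edgeR adjusted p = 0.129), and without wild type replicate 4 it was 0.0083 (edgeR adjusted p = 0.994). Over the 9339 protein-coding genes with a mean of at least 10 CPM, the median ratio of the highest to the lowest wild type library was 1.37, and for Cybb it was 5.51, a ratio that 2.12% of these genes exceeded. In the libraries labelled knockout the Cybb ratio was 1.18, against a median of 1.24.

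Cyba, the partner that Cybb needs for stability, did not follow that pattern. It stood at 178, 173.9 and 84.47 CPM (wild type) against 116.7, 120 and 121 CPM (labelled knockout). Wild type replicate 3 was high for Cyba and low for Cybb, and the libraries labelled knockout lay inside the wild type range for both genes. The log2 fold change was -0.29 ± 0.27 SE (adjusted p = 0.744 by edgeR), with means of 145.4 ± 52.85 and 119.2 ± 2.246 CPM (SD, n = 3 each). Without wild type replicate 4 it was -0.56 (edgeR adjusted p = 0.146), without replicate 1 it was -0.12 and without replicate 3 it was -0.13. The ratio of Cybb to Cyba reads, which no library scaling can alter, was 0.122, 0.0516 and 0.0466 in wild type and 0.121, 0.134 and 0.138 in the libraries labelled knockout. Wild type replicate 1 therefore sat with the libraries labelled knockout, and the mean log2 ratio differed by 0.98 between groups (exact permutation test, two-sided p = 0.2, 1 of 3 ratios compared within the complex; 0.1 is the smallest p that 3 against 3 can give).

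**Figure D2:**
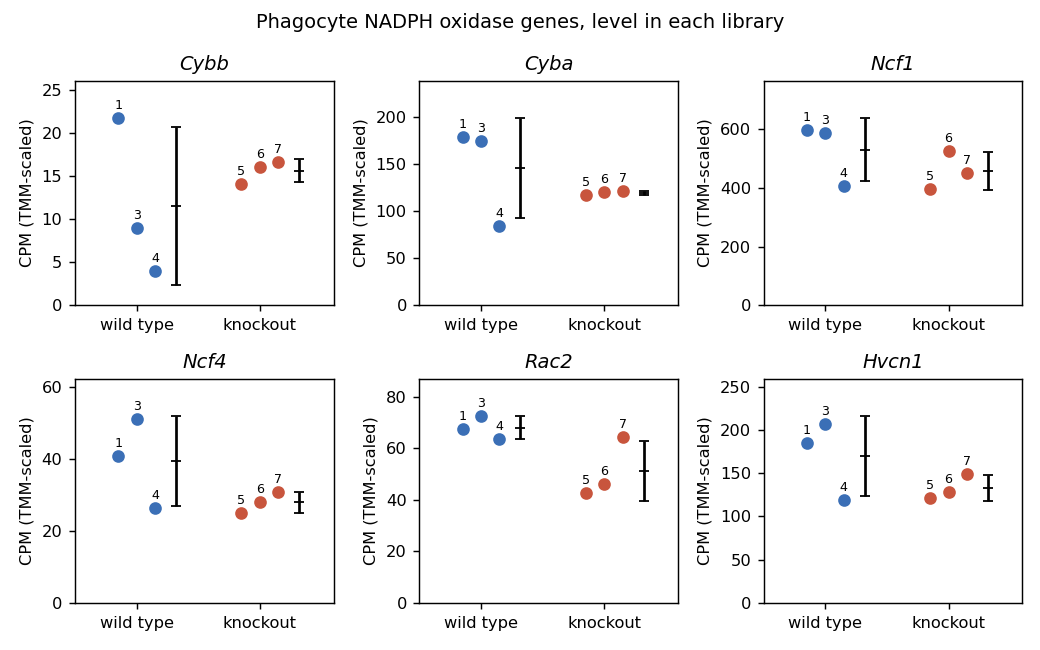
CPM of each oxidase gene by library, with the replicate number above each point and the mean ± SD of the group beside it (axes start at 0). Cybb spans 3.938 to 21.71 CPM within wild type, and the groups overlap in every panel.

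Among the cytosolic subunits, Ncf1, which organises the assembly, had 597.8, 585.2 and 407.3 CPM (wild type) against 396.8, 525 and 451.3 CPM (labelled knockout). Wild type replicates 1 and 3 were the highest of the 6, and replicate 4 lay among the libraries labelled knockout. Group means were 530.1 ± 106.5 and 457.7 ± 64.36 CPM (SD, n = 3 each), with a log2 fold change of -0.21 ± 0.20 SE (adjusted p = 0.747 by edgeR; 95% interval of the fold 0.622 to 1.2). This value was -0.37 when wild type replicate 4 was left out, -0.12 when replicate 1 was, -0.13 when replicate 3 was and -0.12 when knockout replicate 5 was. Ncf4, which binds phosphatidylinositol 3-phosphate on the phagosome, had 40.89, 51.29 and 26.42 CPM (wild type) against 24.94, 28.1 and 30.92 CPM (labelled knockout). Again wild type replicates 1 and 3 were above all other libraries. Group means were 39.53 ± 12.49 and 27.99 ± 2.993 CPM (SD, n = 3 each), giving a log2 fold change of -0.50 ± 0.24 SE (adjusted p = 0.637 by edgeR). Ncf4 thus had the most negative fold change of the 6 members; it was -0.26 without wild type replicate 3. Ncf1 reads outnumbered Ncf4 reads 14.6, 11.4 and 15.4 times in wild type and 15.9, 18.7 and 14.6 times in the libraries labelled knockout, and this ratio overlapped between groups (exact permutation test, two-sided p = 0.3).

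Rac2, the Rac form found mainly in cells of the blood lineage, had the smallest p-value of the members. It had 67.54, 72.41 and 63.63 CPM (wild type) against 42.61, 46.25 and 64.22 CPM (knockout replicates 5, 6, 7). Knockout replicate 7 lay within the wild type range, and replicates 5 and 6 lay below it. The log2 fold change was -0.41 ± 0.18 (SE; edgeR unadjusted p = 0.0529, adjusted p = 0.637), with means of 67.86 ± 4.395 and 51.03 ± 11.57 CPM (SD, n = 3 each). The low values were in the 2 libraries with Y-linked transcripts, both labelled knockout. With a covariate for those transcripts the log2 fold change was -0.08. That value sets knockout replicate 7 alone against wild type, among libraries nearly without Y-linked transcripts. It therefore rests on a single library labelled knockout. The part of sex was not tested. The widely expressed Rac1, which can serve the same complex, had 257.8 to 348.3 CPM (wild type) against 255.6 to 295.3 CPM (labelled knockout). There were 0.202, 0.208 and 0.247 Rac2 reads per Rac1 read in wild type and 0.167, 0.165 and 0.218 in the libraries labelled knockout (exact permutation test, two-sided p = 0.3).

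Hvcn1, the proton channel, had 184.3, 207.2 and 118.6 CPM (wild type) against 121, 128.6 and 149.3 CPM (labelled knockout). As for Ncf1 and Ncf4, wild type replicates 1 and 3 were highest, and here replicate 4 was the lowest of the 6. Group means were 170 ± 45.98 and 133 ± 14.66 CPM (SD, n = 3 each), with a log2 fold change of -0.35 ± 0.22 SE (adjusted p = 0.661 by edgeR; 95% interval of the fold 0.549 to 1.11). Without wild type replicate 4 it was -0.55 (edgeR adjusted p = 0.172), and without wild type replicate 3 it was -0.18.

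**Figure D3:**
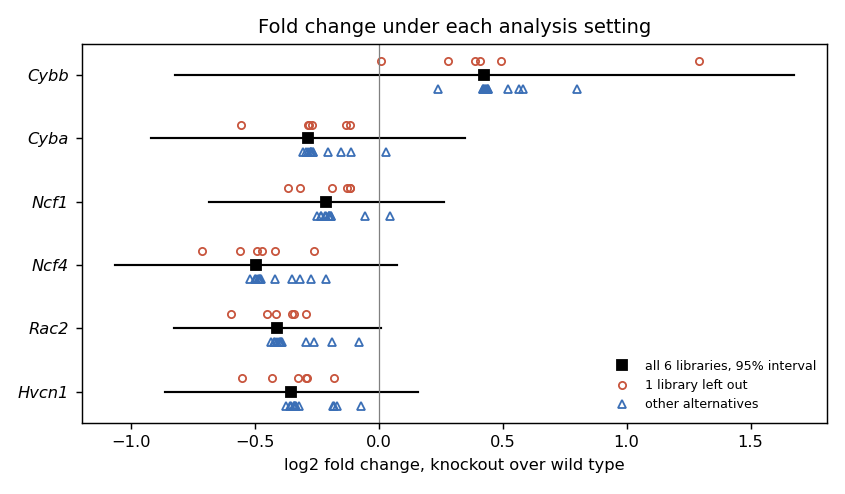
Log2 fold change of each oxidase gene, with a square and a 95% interval for all 6 libraries, red circles for fits without 1 library and blue triangles for the other alternatives. All 6 intervals include 0, and the Cybb circles run from 0.0083 to 1.29.

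The microglia markers were on average highest in wild type replicates 1 and 3, as Ncf1, Cyba, Ncf4, Rac2 and Hvcn1 were. Their geometric mean was 1959, 1908 and 1229 CPM (wild type replicates 1, 3, 4) against 1253, 1542 and 1432 CPM (labelled knockout), and 17 of 18 markers had their lowest wild type value in replicate 4. Divided by that mean, Ncf1 was nearly constant, at 0.305, 0.307 and 0.331 in wild type and 0.317, 0.34 and 0.315 in the libraries labelled knockout. The highest of these 6 ratios was 1.12 times the lowest, and 0.182% of the 9339 genes had a narrower range. The corresponding ranges were 1.3 for Hvcn1, 1.36 for Cyba, 1.48 for Ncf4 and 1.73 for Rac2, beside a median of 1.81 over all these genes. Cybb differed here too, with a range of 3.64, wider than in 88.1% of genes. Relative to the markers, no member separated the groups: the differences in mean log2 ratio ran from -0.21 for Ncf4 to 1.01 for Cybb (exact permutation tests, two-sided, unadjusted p 0.2 to 0.8 over 6 comparisons). The signs for Ncf1 and Cyba, 0.04 and 0.04 on this scale, were opposite to their fold changes after TMM scaling.

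**Figure D4:**
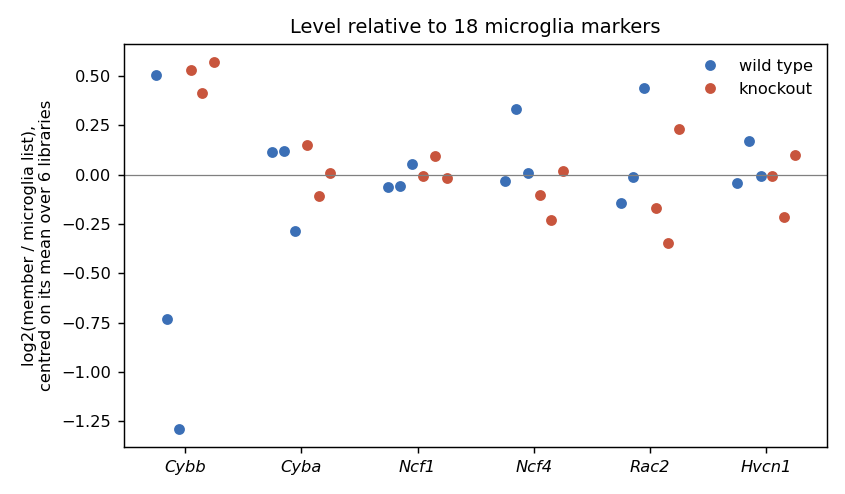
Level of each oxidase gene divided by the geometric mean of 18 microglia markers, as log2 and centred on the gene's mean over the 6 libraries (blue wild type, red labelled knockout). Ncf1 stays within a 1.12-fold range, while Cybb spans 3.64-fold, with wild type replicates 3 and 4 at the bottom.

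The low Cybb libraries were also low in markers of border-associated macrophages, the macrophages of the meninges and perivascular spaces. All 8 markers of that list were lower in wild type replicates 3 and 4 than in each of the other 4 libraries, and 7 of 8 were highest in wild type replicate 1. Mrc1, a mannose receptor, had 657.5, 208.9 and 268.3 CPM (wild type) against 385.5, 413.6 and 466.7 CPM (labelled knockout). Pf4, a chemokine, had 45.76, 11.06 and 8.332 CPM (wild type) against 25.84, 22.23 and 23.24 CPM (labelled knockout). None of the 18 microglia markers had both libraries below the other 4, while 10 of 10 astrocyte and 9 of 9 oligodendrocyte markers did, as did 15.9% of all tested genes. The summed level of the 8 markers was 1088, 324.8 and 414.6 CPM (wild type) against 671.3, 711.3 and 795 CPM (labelled knockout). Against the geometric mean of that list, a reference chosen after the values were seen, Cybb was at 0.444, 0.64 and 0.28 in wild type and 0.46, 0.531 and 0.49 in the libraries labelled knockout, a range of 2.28-fold. Astrocyte markers summed to 3409, 574.8 and 276.2 CPM (wild type) against 3359 to 5977 CPM (labelled knockout), and oligodendrocyte markers to 2409, 550.4 and 168.1 CPM and 2018 to 2433 CPM. Reads that the counting assigned to no feature were 57.6% and 58.2% in wild type replicates 3 and 4 against 40% to 51.2% in the other libraries. Where those reads lay is not known here. The part of these markers and reads in the Cybb values was not tested. Cybb lies on the X chromosome. Its level was 14.11 and 16.06 CPM in the 2 libraries with Y-linked transcripts. Knockout replicate 7, with Xist at 2264 CPM, had 16.68 CPM of Cybb. The wild type libraries, with Xist at 1568 to 3616 CPM, ran from 3.938 to 21.71 CPM of Cybb. The part of sex in these values was not tested.

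**Figure D5:**
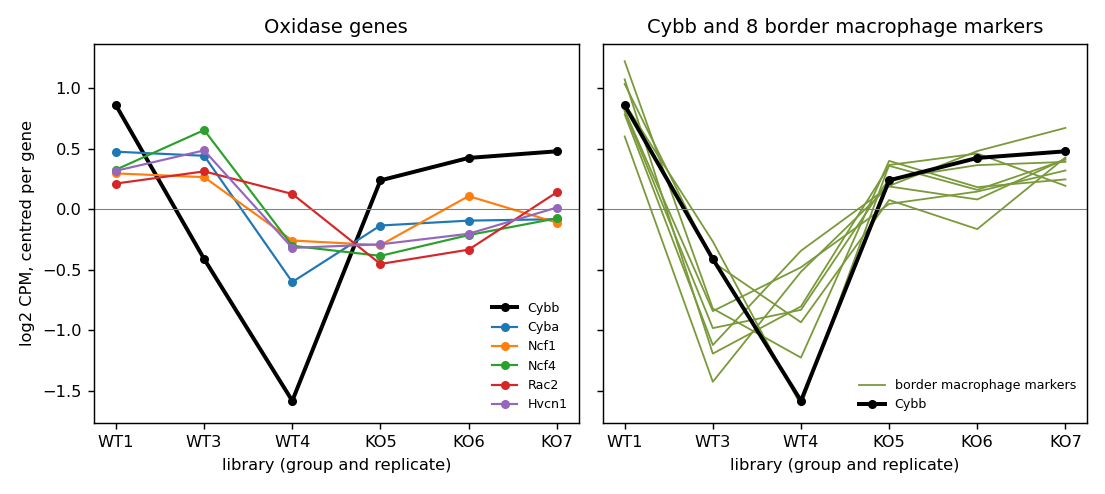
Log2 CPM centred per gene across the 6 libraries, for the 6 oxidase genes (left) and for Cybb with 8 border macrophage markers (right); lines join libraries for reading only. Cybb falls in wild type replicates 3 and 4, as all 8 markers do, while the other members are high in replicate 3.

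Markers of blood phagocytes and lymphocytes, which also carry this oxidase or its proton channel, were mixed, some at or near 0 and some well detected. Ranges are given with wild type first. Of 14 neutrophil markers, 11 stayed under 1 CPM in every library, with Ly6g and Mmp8 at 0 counts in all 6. The summed neutrophil list, 412.4 to 616.9 CPM (wild type) against 287.8 to 430.1 CPM (labelled knockout), was almost entirely Csf3r, the receptor for granulocyte colony stimulating factor, at 403.6 to 613.1 and 280.1 to 418.8 CPM. Of 7 monocyte markers, Ly6c2 and Chil3 stayed under 1 CPM in every library, while Vcan had 89.53 to 344.2 and 180.6 to 309.9 CPM, Nr4a1 10.67 to 152.7 and 98.71 to 128.3 CPM, Fn1 5.65 to 16.18 and 15.4 to 33.39 CPM, and Ccr2 4.315 to 5.528 and 2.097 to 8.028 CPM. The monocyte list summed to 135.9 to 366.3 and 334 to 433.5 CPM, and its part in the members' values was not tested. Among 6 B cell markers, Ms4a1 had 0 counts in all 6 libraries, Cd79a and Pax5 stayed under 1 CPM, and Cd79b had 17.69 to 22.97 and 12.98 to 18.9 CPM and Cd22 3.025 to 9.878 and 2.698 to 5.279 CPM. That list summed to 146 to 261.1 CPM (wild type) against 150 to 214.5 CPM (labelled knockout), mainly from Ighm at 124.8 to 233.5 and 134 to 190.3 CPM. The T and NK cell list of 9 genes summed to at most 9.082 CPM, and Cd8a, Nkg7 and Ncr1 had 0 counts in all 6 libraries. Among other brain cells, pan-neuronal markers summed to 237.2 to 706.6 and 474 to 878.8 CPM, and endothelial markers to 56.5 to 128.5 and 116.9 to 174.4 CPM.

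Of the 12 genes listed as oxidase partners and other NOX family members, 5 passed the filter and 0 of these were called by edgeR, DESeq2 or limma-voom, with 0 at an unadjusted p under 0.05 by any of them. All 5 had negative log2 fold changes (background 53.7%, median -0.18). Cybc1, a chaperone for the membrane pair, had 91.48 to 122 CPM (wild type) against 86.83 to 113.3 CPM (labelled knockout). Noxo1, the organiser of the NOX1 enzyme, was the 1 gene of the list whose groups did not overlap, at 15.52 to 19.66 and 11.14 to 14.84 CPM (log2 fold change -0.41; edgeR adjusted p = 0.637), where 6.68% of all tested genes separated in that direction. Rac3 had 9.243 to 12.49 and 9.933 to 11.3 CPM. Duoxa1, a maturation factor of dual oxidases, had 1.027 to 2.436 and 0.6255 to 1.258 CPM. The other catalytic subunits were nearly undetected: Nox1, Nox3, Nox4, Duox1 and Duox2 stayed under 1 CPM in every library, as did Duoxa2, and Noxa1 had 0 counts in all 6 libraries, where the upper limit for a count of 0, set at 3 counts, amounts to 0.0937 to 0.272 CPM.

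Of 25 genes that activate the oxidase (kinases, lipid kinases, exchange factors for Rac and their partners), edgeR, DESeq2 and limma-voom called 0. Negative log2 fold changes were found for 24 of 25 (background 53.7%), with a median of -0.32, the same to 2 decimals as that of the members. All 18 microglia markers were negative as well, with a median of -0.24. At an unadjusted p under 0.05 there were 2 lower genes by edgeR (background 2.77%), 2 in either direction by DESeq2 (background 9.28%) and 5 by limma-voom (background 8.52%). Coro1a, an actin-binding protein that interacts with Ncf4, had 433.4, 436.8 and 314.2 CPM (wild type) against 270.2, 288.3 and 293.8 CPM (labelled knockout), a log2 fold change of -0.47 ± 0.17 SE (adjusted p = 0.637 by edgeR). Its groups did not overlap, and neither did those of Pik3cg and Pik3cd, catalytic subunits of phosphoinositide 3-kinase, or Dock2, a Rac exchange factor. These are 4 of 25 genes, where the background is 6.68%. Pik3cg had 354.7 to 458.4 and 234 to 322.5 CPM, and Dock2 534.2 to 655.7 and 353.6 to 504.4 CPM. Plcg2, a phospholipase downstream of immune receptors, had 250.5 to 347.1 and 191.2 to 262.7 CPM. With libraries scaled by the microglia markers, the log2 fold changes of Coro1a, Pik3cg, Dock2 and Plcg2 were -0.22, -0.25, -0.205 and -0.21.

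Transcription factors known from phagocyte oxidase genes were mostly negative too, with 10 of 11 tested factors below 0 (background 53.7%). Their median was -0.27, beside -0.24 for the 18 microglia markers. None of the 11 was called by edgeR, DESeq2 or limma-voom, and 0 had an unadjusted p under 0.05 by any of the 3. Spi1 (PU.1), a master factor of macrophages, had 164.2, 173.7 and 106.1 CPM (wild type) against 100.8, 115.9 and 128.5 CPM (labelled knockout). Irf8, its partner on many macrophage genes and of the family that reads the spaced GAAA pair present in the Cybb and Ncf1 windows, had 322.3 to 432.8 and 251 to 345.2 CPM. Nfkb1, an NF-kB subunit, had 227.8 to 290.3 and 172.6 to 226.8 CPM. It was the 1 of 11 factors whose groups did not overlap, where 6.68% of all tested genes separated in that direction. Elf1, an ETS factor, had 98.28 to 133.1 and 82.72 to 112.2 CPM. With libraries scaled by the microglia markers, the log2 fold changes of Spi1, Irf8, Nfkb1 and Elf1 were -0.0896, -0.111, -0.1193 and -0.0276.

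The genes that remove superoxide and peroxide leaned the other way in sign, though the groups overlapped for every one of them (background 13% without overlap). Of 24, 20 had positive log2 fold changes (background 46.3%), with a median of 0.12, and edgeR, DESeq2 and limma-voom called 0. At an unadjusted p under 0.05 there were 2 higher genes by edgeR (background 4.48%), 2 in either direction by DESeq2 (background 9.28%) and 3 by limma-voom (background 8.52%). Slc7a11, the cystine importer that feeds glutathione synthesis, had 45.62, 14.95 and 5.536 CPM (wild type) against 102, 44.4 and 63.94 CPM (labelled knockout). Prdx6, a peroxiredoxin, had 53.38, 24.38 and 15.69 CPM (wild type) against 87.14, 50.27 and 56.2 CPM (labelled knockout). In both, wild type replicates 3 and 4 were the 2 lowest libraries, as in the astrocyte sums above, whose part was not tested. Prdx2 had 57 to 79.44 and 68.88 to 118.2 CPM, and Gpx3, the plasma glutathione peroxidase, 1.178 to 3.514 and 3.323 to 4.467 CPM. Sod3, the extracellular superoxide dismutase, had 2.123, 0.09062 and 0.05707 CPM (wild type) against 3.245, 1.198 and 3.03 CPM (labelled knockout). When wild type replicate 1 was left out, Sod3 passed as higher (log2 fold change 5.04; edgeR adjusted p = 0.0414), a setting in which 1.77% of all tested genes passed as higher.

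NADPH supply and charge balance held no called gene by edgeR, DESeq2 or limma-voom. Of 9 genes that supply NADPH, 5 were positive and 4 negative (median 0.03). G6pdx, which encodes the first enzyme of the pentose phosphate pathway, had 39.38 to 50.94 CPM (wild type) against 48.36 to 50.75 CPM (labelled knockout). Me1, cytosolic malic enzyme, had 1.722 to 6.333 and 5.931 to 10.32 CPM, Idh1 48.48 to 75.72 and 66.97 to 96.45 CPM, Pgd 88.8 to 91.03 and 72.6 to 88.68 CPM, and Idh2 146.6 to 184.1 and 143.1 to 156.5 CPM. Unadjusted p-values under 0.05 were given to 0 of these 9 by edgeR (background 7.25%) and to 1 each by DESeq2 (background 9.28%) and limma-voom (background 8.52%). Of 11 genes for ion and pH balance, 7 were negative (background 53.7%, median -0.13). At an unadjusted p under 0.05 there were 0 by edgeR and 1 each by DESeq2 and limma-voom, against the same background shares as above. Clcn5, a chloride and proton exchanger, had 101.4 to 103.1 and 75.33 to 91.49 CPM, and Kcnn4, a calcium-activated potassium channel, 2.54 to 3.139 and 0.9586 to 2.374 CPM. With Kcna3, a voltage-gated potassium channel, at 3.262 to 3.824 and 2.696 to 3.01 CPM, they are the 3 of 11 genes whose groups did not overlap, all lower (background 6.68%). Atp6v1a, a subunit of the vacuolar proton pump, had 75.68 to 117.4 and 109.3 to 118 CPM. Car2, a carbonic anhydrase, had 21.26, 5.89 and 3.653 CPM (wild type) against 33.35, 19.23 and 23.99 CPM (labelled knockout), and passed as higher without wild type replicate 1 (log2 fold change 2.43; edgeR adjusted p = 0.0371).

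Positions in GRCm38 tie 2 members to the chromosome of the targeted gene. Ncf1 (chr5:134220053-134229625, minus strand) lies in the Williams region, 128 kb from Gtf2ird1 (chr5:134357656-134456716), and Hvcn1 (chr5:122206804-122242297, plus strand) lies 12.1 Mb from it. The log2 fold changes of Ncf1 and Hvcn1 were -0.21 and -0.35, and an effect of the targeted locus on them was not tested. The other members lie on chromosomes X (Cybb, chrX:9435252-9487771), 8 (Cyba, chr8:122424776-122432930) and 15. Ncf4 (chr15:78244801-78262580) and Rac2 (chr15:78559167-78572783) are 297 kb apart. Gtf2i, between Ncf1 and Gtf2ird1, had 205.4 to 308.6 CPM (wild type) against 195.7 to 254.1 CPM (labelled knockout). Exons of 2 members overlap genes on the opposite strand. Tctn1, a gene of the ciliary transition zone, covers 44.18% of the Hvcn1 exon length, and Gtf2ird2 covers 11.14% of that of Ncf1. The sources used here do not give the strand setting of the counting, so reads in these stretches cannot be assigned with certainty. Tctn1 had 32.95 to 40.35 and 33.23 to 36.2 CPM, and Gtf2ird2 30.27 to 38.06 and 28.73 to 34.67 CPM, in each case below the member it overlaps. Cyba lies within the span of Gm20388 on the opposite strand, which shares 0 exonic bases with it and had 0 counts. The identifiers in the count files were ENSMUSG00000015340.10 for Cybb, ENSMUSG00000006519.11 for Cyba, ENSMUSG00000015950.13 for Ncf1, ENSMUSG00000071715.11 for Ncf4, ENSMUSG00000033220.6 for Rac2 and ENSMUSG00000064267.13 for Hvcn1.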

How the data were processed

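The deposited values are raw read counts per gene, 1 file per library. Per the submitters' processing notes, Trim Galore 0.60, STAR 2.7, HTSeq 1.31 and the build mm10 were used. The sources used here give neither the annotation release nor the strand setting, and the summary line for reads with several alignments was 0. The 5 summary lines that name no gene stayed out of totals and tests. Symbols, positions and merged exon lengths came from GENCODE M21 (GRCm38), which matched 53274 of 53379 genes.

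Groups were compared with edgeR 4.0.16 in R 4.3.3 (quasi-likelihood F-test, TMM, default filter by group, robust, two-sided, Benjamini-Hochberg over 17221 genes, threshold 0.05), with DESeq2 1.42.0 and limma-voom (limma 3.58.1) as alternatives. The fit was also run on simulated counts with the same dispersion for every gene, so that run does not describe its behaviour on these libraries. Levels are CPM after TMM scaling. Ratios were compared by exact permutation. Intervals of folds come from the fit. Libraries of 1 group differed by at least 49.8 in chi-square per degree of freedom and each counted once.

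The members and the 6 pathway and 11 marker lists were chosen with earlier results of these data known. Genes named were the members, all oxidase partners, the 4 smallest p-values of each other pathway list, list genes called without 1 library and genes overlapping a member. Marker genes, Kcna3, G6pdx, Pik3cd, Gtf2i and the motifs were picked after values or sequences were seen. Some genes of the lists are not reported here.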

Additional observations from a re-analysis of the deposited data

How the results depend on the processing

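No oxidase member was called in any of the 19 alternatives. No paired analysis was possible because the groups share no replicate number in the labels. Over all genes, calls as higher numbered 1, but 21 with DESeq2, 4 without the expression filter, 2 with scaling by the microglia list, 0 with protein-coding genes alone, 0 without both wild type replicate 3 and knockout replicate 6 (chosen after seeing the data), and 1 to 306 without 1 library, the most without wild type replicate 1. Calls as lower numbered 0, but 7 with DESeq2, 1 without the filter, 1 with the covariate for Y-linked transcripts (chosen after seeing the data), and 0 to 15 without 1 library. The 1 gene called is a processed pseudogene, which the protein-coding set leaves out; the cause of the other shifts was not tested. The median log2 fold change of all genes, -0.03, became 0.11 with total counts and 0.19 with the microglia list, where the members' median was -0.15 and -0.02. Signs turned with the microglia list for Cyba (0.027), Ncf1 (0.0439), Rac1 (0.0713), Cybc1 (0.1174), Rac3 (0.1622), Pgd (0.039) and Idh2 (0.0796); with total counts for Cybc1 (0.0219) and Rac3 (0.0739); and with the Y-linked covariate for Cybc1 (0.0512). Without 1 library, Rac3 ranged from -0.1598 to 0.043, positive without wild type replicate 1 or knockout replicate 7. The difference in log2 ratio to the microglia list ranged from -0.0997 to 0.1041 for Cyba, negative without wild type replicate 4 or knockout replicate 5, and from -0.1489 to 0.0125 for Hvcn1, positive without knockout replicate 6. Of 691 such values, 674 kept their direction and side of the threshold, and 2, Sod3 and Car2 without wild type replicate 1, passed it. Counts of 69 to 99 for Cybb in wild type replicates 4 and 3 limit its precision there.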

Other observations

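Profiles across the 6 libraries were compared by the root mean square difference of log2 CPM centred per gene, over 9338 other protein-coding genes with a mean of at least 10 CPM. The 10 pairs of members without Cybb differed by 0.0871 (Ncf4 and Hvcn1) to 0.3697, and the 5 pairs with Cybb by 0.6519 to 0.9137. The nearest genes to Ncf1 were Otulinl (0.0181), Kcnk13, a potassium channel of microglia (0.0275), and Adam17, a sheddase (0.0281). Cyba lay nearest to C1qa, a complement component made by microglia (0.0447), As3mt (0.0504) and Ccnq (0.0506). Hvcn1 lay nearest to Pla2g15 (0.0358), Tap2 (0.0386) and Naglu, a lysosomal enzyme (0.0446). Naglu was also nearest to Ncf4 (0.0524), before Mctp1 (0.0567) and Spata13 (0.0576). Rac2 lay nearest to Fam84b (0.0389), Dtx4 (0.0607) and Sp110 (0.0615). The neighbours of Cybb were at larger distances: Nptxr, the neuronal pentraxin receptor (0.1025), Cp, ceruloplasmin (0.1104), and Tnfaip3, an inhibitor of NF-kB signalling (0.1682). Nptxr had 28.08, 11.06 and 5.136 CPM (wild type) against 18.18, 18.45 and 24.33 CPM (labelled knockout), and Cp 29.51, 10.06 and 5.422 CPM and 19.78, 22.29 and 22.52 CPM. The border macrophage markers with a mean of at least 10 CPM, 7 of 8, took ranks 37 (Pf4) to 713 in likeness to Cybb. Markers of other cells stood among and ahead of them, with endothelial Flt1 at rank 25, neuronal Syt1 at 26 and the oligodendrocyte genes Cnp and Mag at 48 and 65. All genes were read in the same 6 libraries and share their depth and cell makeup, so these distances are a description.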
